A study of Mus musculus with 16 samples.

Results

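The mitochondrial genes described here encode nuclear subunits of the respiratory chain and the ATP synthase. They are the 82 genes of the array's annotation whose symbols begin with Nduf, Uqcr, Atp5, Cox4, Cox5, Cox6, Cox7 or Cox8, out of 17097 genes with a probe set of their own, and 1 pseudogene with such a symbol was left out. By role they comprise 6 core and 26 accessory subunits of complex I, 7 complex I assembly factors, 7 subunits of complex III, 11 broadly expressed genes of complex IV, 8 isoforms restricted by tissue or oxygen, and 17 genes of the ATP synthase. Where a gene had several probe sets, the one of highest average level on the arrays was taken, and all values are on the deposited log2 scale.

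RNA was measured on 16 mouse arrays of adipose tissue macrophages, 4 arrays from 4 pools in each of 4 groups. The groups were LysM-Cre Sucnr1-/- visceral fat (KO-LysM VAT), LysM-Cre Sucnr1-/- subcutaneous fat (KO-LysM SAT), Sucnr1flox/flox visceral fat (labelled WT VAT) and Sucnr1flox/flox subcutaneous fat (labelled WT SAT). All mice were 19 to 21 weeks old, and all carried floxed alleles of the succinate receptor gene Sucnr1. Only KO-LysM mice carried Cre, under the promoter of the lysozyme gene LysM, which is active in macrophages and other myeloid cells such as neutrophils. All groups carry the label NCD, which the labels do not spell out. Cells were freed with collagenase. The labels give selection on CD11b beads in one field, a marker that other leukocytes also bear, and name a different macrophage surface marker in another. RNA of 300000 cells was amplified over 24 cycles. Pools 1 and 2 of every group belong to day 1 and pools 3 and 4 to day 2. The labels do not give the number of animals in a pool or say that pools held different animals, so p-values measure only the spread between these samples.

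Complex I oxidises NADH and passes its electrons to ubiquinone. Complex III passes them on to cytochrome c, and complex IV reduces oxygen with them. The proton gradient that these complexes build drives the ATP synthase. Macrophages change their use of the chain with their state: succinate, oxidised by complex II, can drive reverse electron flow at complex I, and it is also released as a ligand of the receptor that Sucnr1 encodes. Several complex IV subunits have isoforms, one broadly expressed and another found mainly in striated muscle and brown fat, in testis, or at low oxygen.

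Promoters of nuclear respiratory genes often carry sites for NRF1, GABPA and YY1, and 4 of them are printed to show members with and without such letters. The windows around the gene's start are RefSeq's, in GRCm38.p6, and capitals mark the letters searched. The motifs were GCGCA, any base and then GCGC for NRF1, CCGGAAG for GABPA and AANATGGCG for YY1, each on both strands. Ndufaf4 (chr4:24897833-24898132, plus strand) holds a palindromic NRF1 match, Ndufb11 (chrX:20617570-20617869, minus strand) a YY1 match, and Cox8a (chr19:7217567-7217866, minus strand) 2 GABPA matches read on the other strand. Cox8b (chr7:140900397-140900696, minus strand), the muscle and brown fat partner of Cox8a, holds none of them.
Ndufaf4: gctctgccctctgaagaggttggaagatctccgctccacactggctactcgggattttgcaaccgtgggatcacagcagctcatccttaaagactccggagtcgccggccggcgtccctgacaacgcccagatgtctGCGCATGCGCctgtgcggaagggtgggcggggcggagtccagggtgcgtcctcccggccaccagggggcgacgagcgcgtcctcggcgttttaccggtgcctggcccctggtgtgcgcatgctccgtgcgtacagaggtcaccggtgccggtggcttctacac
Ndufb11: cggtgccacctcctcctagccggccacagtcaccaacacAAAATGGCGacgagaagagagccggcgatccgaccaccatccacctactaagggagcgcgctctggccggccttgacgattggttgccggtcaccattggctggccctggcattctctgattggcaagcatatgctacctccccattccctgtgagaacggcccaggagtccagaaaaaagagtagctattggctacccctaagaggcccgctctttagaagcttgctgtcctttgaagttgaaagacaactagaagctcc
Cox8a: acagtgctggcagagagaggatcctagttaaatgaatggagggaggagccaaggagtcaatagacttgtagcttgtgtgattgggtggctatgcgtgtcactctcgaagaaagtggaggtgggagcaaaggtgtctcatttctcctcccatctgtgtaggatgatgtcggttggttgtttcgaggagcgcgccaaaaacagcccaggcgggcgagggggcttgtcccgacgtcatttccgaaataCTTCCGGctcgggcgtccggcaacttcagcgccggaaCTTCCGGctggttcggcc
Cox8b: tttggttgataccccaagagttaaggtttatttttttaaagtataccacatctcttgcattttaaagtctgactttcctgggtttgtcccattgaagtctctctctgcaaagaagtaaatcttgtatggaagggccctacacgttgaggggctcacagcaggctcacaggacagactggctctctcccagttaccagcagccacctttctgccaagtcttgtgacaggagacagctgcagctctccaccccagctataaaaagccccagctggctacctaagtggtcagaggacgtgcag

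Of the 82 members 67 had such a window. The NRF1 letters stood in 16 of these 67 (23.9%, against 5.19% of all 27025 promoters in the table). The GABPA letters stood in 15 (22.4%, against 9.93%) and the YY1 letters in 11 (16.4%, against 2.76%). At least 1 of the 3 motifs was present in 36 member windows, or 53.7%, against 15.9% of all promoters. None of the 4 windows of restricted isoforms held one, and a window without these letters says nothing about binding of the factor.

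Before the comparisons, several arrays went against their labels. Seminal vesicle transcripts summed to 6356 to 10505 linear units on the arrays labelled KO-LysM SAT, with 7 of 7 marker genes above background. The same sum was 320 to 428 on KO-LysM VAT, 359 to 834 on WT VAT and 410 to 1001 on WT SAT, with 1 of 7 above background in each. These counts rest on group means. On WT SAT pool 2, Svs4 stood at 7.30 and Svs6 at 5.09, above background. The other WT SAT arrays stood at 3.79 to 4.05 for Svs4 and 3.48 to 3.85 for Svs6. The seminal vesicle adjoins visceral and not subcutaneous fat, so each depot comparison was repeated with the depot labels of the KO-LysM arrays exchanged. Skeletal muscle markers summed to 2663 to 4873 on WT SAT, against 859 to 1314 on KO-LysM VAT, 505 to 573 on KO-LysM SAT and 538 to 676 on WT VAT. Of 17 muscle genes, 13 were above background on WT SAT, 10 on KO-LysM VAT, 7 on KO-LysM SAT and 8 on WT VAT. In every group 11 of 12 macrophage markers were above background, Cd163 being the exception. Their sum ranged over 4746 to 7655 on KO-LysM VAT, 7243 to 10393 on KO-LysM SAT, 6318 to 9882 on WT VAT and 8526 to 11421 on WT SAT. Endothelial markers summed to 324 to 946 on KO-LysM VAT and 904 to 1242 on KO-LysM SAT, against 372 to 971 on WT VAT and 366 to 476 on WT SAT. Adipocyte markers summed to 1440 to 2384 on KO-LysM VAT and 2459 to 3205 on KO-LysM SAT, against 1583 to 3086 on WT VAT and 1364 to 1902 on WT SAT. Erythroid markers summed to 1844 to 2512 on KO-LysM VAT and 292 to 1078 on KO-LysM SAT, against 301 to 1163 on WT VAT and 1461 to 3729 on WT SAT. Stromal markers summed to 3778 to 4352 on KO-LysM VAT and 2815 to 3481 on KO-LysM SAT, against 2460 to 4991 on WT VAT and 2075 to 2930 on WT SAT. Endothelial, adipocyte and erythroid sums thus did not overlap between KO-LysM SAT and WT SAT, and the part of these cells' RNA in the results was not tested. The adipocyte genes did not move together. Fabp4, their brightest on KO-LysM SAT, measured 10.55 to 10.86 there, against 8.97 to 9.70 on WT SAT. Adipoq was also higher (5.31 to 5.70, against 4.80 to 5.21). Slc2a4 was lower (5.20 to 5.39, against 5.57 to 5.72), as was Pck1, which lay below background. The rest overlapped. Of the measured markers, 5 of 5 endothelial genes were above background in KO-LysM VAT and KO-LysM SAT and 4 in each WT group. For adipocyte genes it was 5 of 8 in KO-LysM VAT and 6 in each other group, with Lep and Pck1 below background throughout, and for erythroid genes 2 of 3 in every group. In such bulk RNA, fewer cells of a type and less RNA per cell cannot be told apart.

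Background was set at 4.78 on the log2 scale, the 95th percentile of the levels of 41 olfactory receptor genes. Sucnr1 itself lay below it on all arrays, with means of 3.53 ± 0.08 on KO-LysM VAT arrays, 3.55 ± 0.09 on KO-LysM SAT, 3.52 ± 0.12 on WT VAT and 3.54 ± 0.03 on WT SAT arrays (SD, n = 4 each). Its single probe set therefore does not check the genotype labels. Of the members 78 were above background in all 4 groups. Ndufaf1 and Cox7b2 were above it in none, Cox7a1 only in WT SAT, and Ndufaf3 in all but KO-LysM VAT.

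The arrays also differed in the spread of their values, and the members' level moved with that spread. The interquartile range over all probe sets was 2.49 ± 0.11 on KO-LysM VAT and 2.52 ± 0.12 on KO-LysM SAT, against 2.30 ± 0.26 on WT VAT and 2.20 ± 0.08 on WT SAT (log2 units, SD, n = 4 each). WT VAT was the least uniform group: its interquartile ranges spanned 2.01 to 2.54, and its lowest correlation between arrays was 0.94, against 0.99 in each other group. By the brightness of their probe sets, 47 members lay in the highest decile of all genes and 70 in the upper 3 deciles. The median member level was 9.12 ± 0.13 on KO-LysM VAT and 9.08 ± 0.17 on KO-LysM SAT, against 8.93 ± 0.42 on WT VAT and 8.88 ± 0.23 on WT SAT. The 4 WT VAT arrays stood at 8.46, 8.68, 9.31 and 9.26, so that the day 1 pair was low and the day 2 pair as high as the KO-LysM arrays. Genes of the highest decile had the same order, with 9.59 ± 0.12 on KO-LysM VAT and 9.59 ± 0.13 on KO-LysM SAT, against 9.35 ± 0.42 on WT VAT and 9.32 ± 0.15 on WT SAT.

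**Figure D1:**
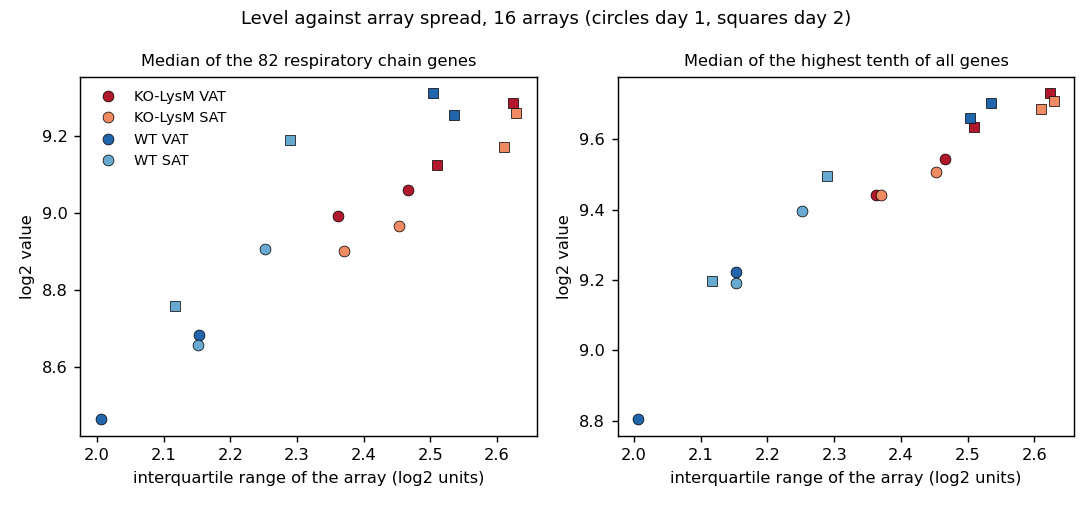
Interquartile range of each of the 16 arrays (log2 units, x axis) against the median log2 level of the 82 members and of the highest decile of all genes (y axis), 1 point per array, by group. Both medians lie higher where the spread is larger, and the WT VAT arrays run from 8.46 to 9.31 in the member median. The part of spread in the genotype difference was not tested as a cause.

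Alternatives that handle the spread in 3 ways were therefore set beside the values as deposited. In the first the arrays were quantile-normalized, and in the second each array was centred and scaled to the mean interquartile range. In the third the interquartile range entered the fit as a covariate. In SAT that range did not overlap between genotypes, at 2.37 to 2.63 on KO-LysM and 2.12 to 2.29 on WT arrays. With the covariate, spread and genotype therefore cannot be told apart in SAT, and the comparison over both depots includes these arrays. A difference is written as called when limma's moderated test, adjusted by Benjamini-Hochberg over all 17097 genes, gave an adjusted p below 0.05.

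The first question was whether loss of Sucnr1 in myeloid cells went with another level of respiratory chain transcripts. As deposited, most members were higher in KO-LysM than in WT macrophages of both depots, by small amounts. Over both depots 29 members were called higher and 5 lower, which is 41.5% of the 82, against 51.7% called among all genes (22.5% higher, 29.2% lower). In SAT 13 were called higher and 5 lower, with 36.7% of all genes called (16.7% higher, 20% lower). In VAT 9 were called higher and 1 lower, with 15.9% of all genes called (10.2% higher, 5.76% lower). With both directions pooled, the share of members called was below that of all genes in each comparison. Higher calls alone took a larger share of the members than of all genes over both depots and, narrowly, in VAT, but not in SAT. Of the 1710 genes of the highest decile, 783 were called higher over both depots, 539 in SAT and 334 in VAT, a larger share than of the members each time. Ndufa5, Ndufb3, Ndufb11, Uqcrfs1 and Cox5a were called higher in both depots, and 59 members had a positive difference in both.

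The median member difference, KO-LysM minus WT, was 0.15 in SAT, 0.17 in VAT and 0.15 over both depots on the log2 scale. The median over all genes was -0.055, -0.054 and -0.050 in the same 3 comparisons. Genes of the highest decile had medians of 0.24 in SAT, 0.20 in VAT and 0.23 over both depots, larger than those of the members. By day, the members' median in SAT was 0.10 on day 1 and 0.19 on day 2. In VAT it was 0.40 on day 1 and -0.053 on day 2, so that the VAT difference lay in the day 1 arrays.

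The sign of the members' median turned once spread was handled. In SAT their median was -0.055 after quantile normalization, -0.27 after scaling and -0.22 with the covariate, and the highest decile stood at 0.021, -0.30 and -0.19. In VAT the members' medians were -0.0077, -0.097 and -0.051 in the same order, and those of the highest decile -0.0035, -0.12 and -0.071. Over both depots they were -0.044, -0.18 and -0.15, and those of the highest decile 0.014, -0.19 and -0.13. The median over all genes was -0.061, -0.027 and -0.033 in SAT and -0.050, -0.0071 and -0.028 in VAT. Over both depots it was -0.052, -0.015 and -0.030. The calls turned with the members' medians except in VAT after quantile normalization, where more were still called higher than lower. In SAT 6 members were higher and 18 lower after quantile normalization (12% and 18.5% of all genes), 4 and 40 after scaling (13.7% and 19.9%), and 1 and 19 with the covariate (1.58% and 6.07%). In VAT the counts were 6 higher and 4 lower (9.26% and 8.79% of all genes), 2 and 8 (8.83% and 7.19%), and 1 and 9 (4.57% and 6.25%). Over both depots they were 12 higher and 24 lower (16.4% and 26.8%), 8 and 39 (20.3% and 24.7%), and 0 and 19 (1.96% and 5.95%). Of the 1710 genes of the highest decile, the counts in SAT were 357 higher and 270 lower, 82 and 870, and 29 and 351. In VAT they were 283 and 283, 139 and 362, and 115 and 270. Over both depots they were 441 and 386, 137 and 872, and 29 and 340, in the same order of settings.

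**Figure D2:**
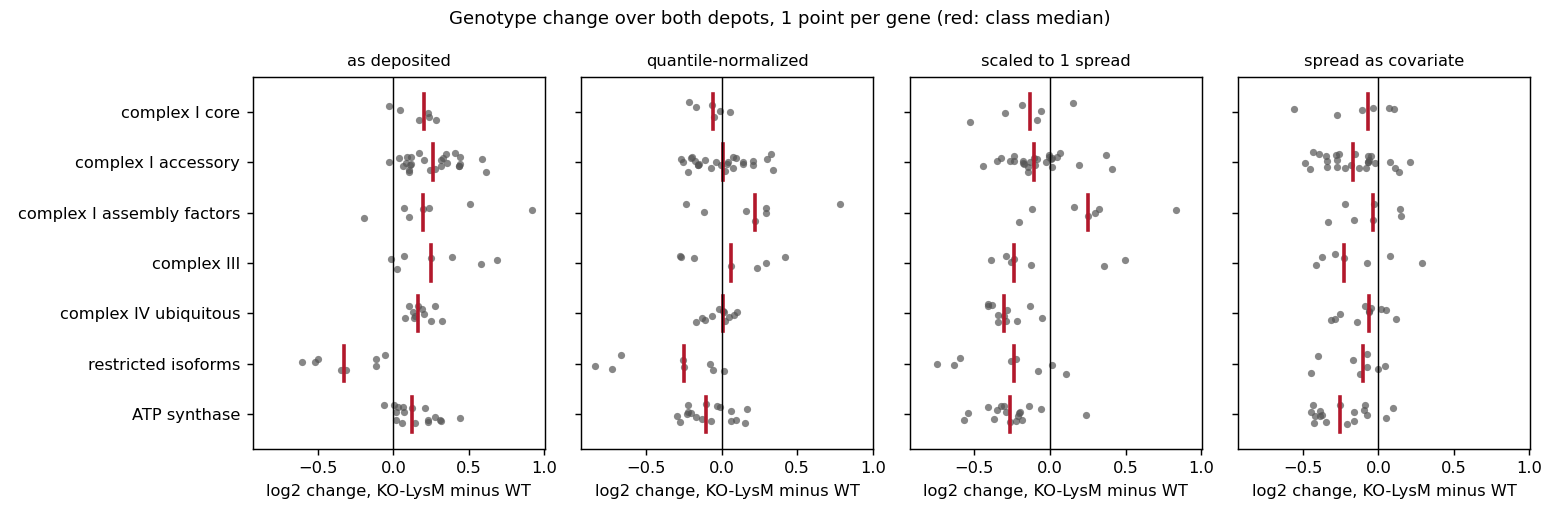
Log2 difference, KO-LysM minus WT over both depots (x axis), of every member by role (rows), in 4 panels for the values as deposited, quantile-normalized, scaled to 1 spread and with spread as a covariate. The median over all members is 0.15 as deposited and -0.044, -0.18 and -0.15 in the other panels. The assembly factors' median lies right of 0 as deposited, after quantile normalization (0.22) and after scaling (0.25), and that of the restricted isoforms left of 0 in all 4 panels.

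Few calls survived all 3 alternatives. Of 18 members called in SAT, Uqcrb, Cox7a1 and Cox8b kept call and direction in all 3. Of 10 called in VAT, Uqcrfs1 and Ndufaf3 did so, and of 34 called over both depots none did. Among all genes 6279 were called in SAT as deposited, and 204 were called higher and 476 lower in all 3 alternatives. In VAT 2724 were called as deposited, and 656 higher and 504 lower in all 3. Over both depots 8831 were called as deposited, and 275 higher and 474 lower in all 3. Counting any member called in all 3 alternatives, whatever its value as deposited, 1 was higher and 12 were lower in SAT (1.19% and 2.78% of all genes), 1 higher and 2 lower in VAT (3.84% and 2.95%), and 0 higher and 8 lower over both depots (1.61% and 2.77%). The 12 in SAT were Cox7a1, Cox8b, Ndufa3, Ndufb2, Ndufs7, Uqcr10, Uqcrc1, Atp5a1, Atp5b, Atp5d, Atp5g2 and Atp5j, a group chosen after its values were seen. All but Cox7a1 and Cox8b were uncalled as deposited.

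**Figure D3:**
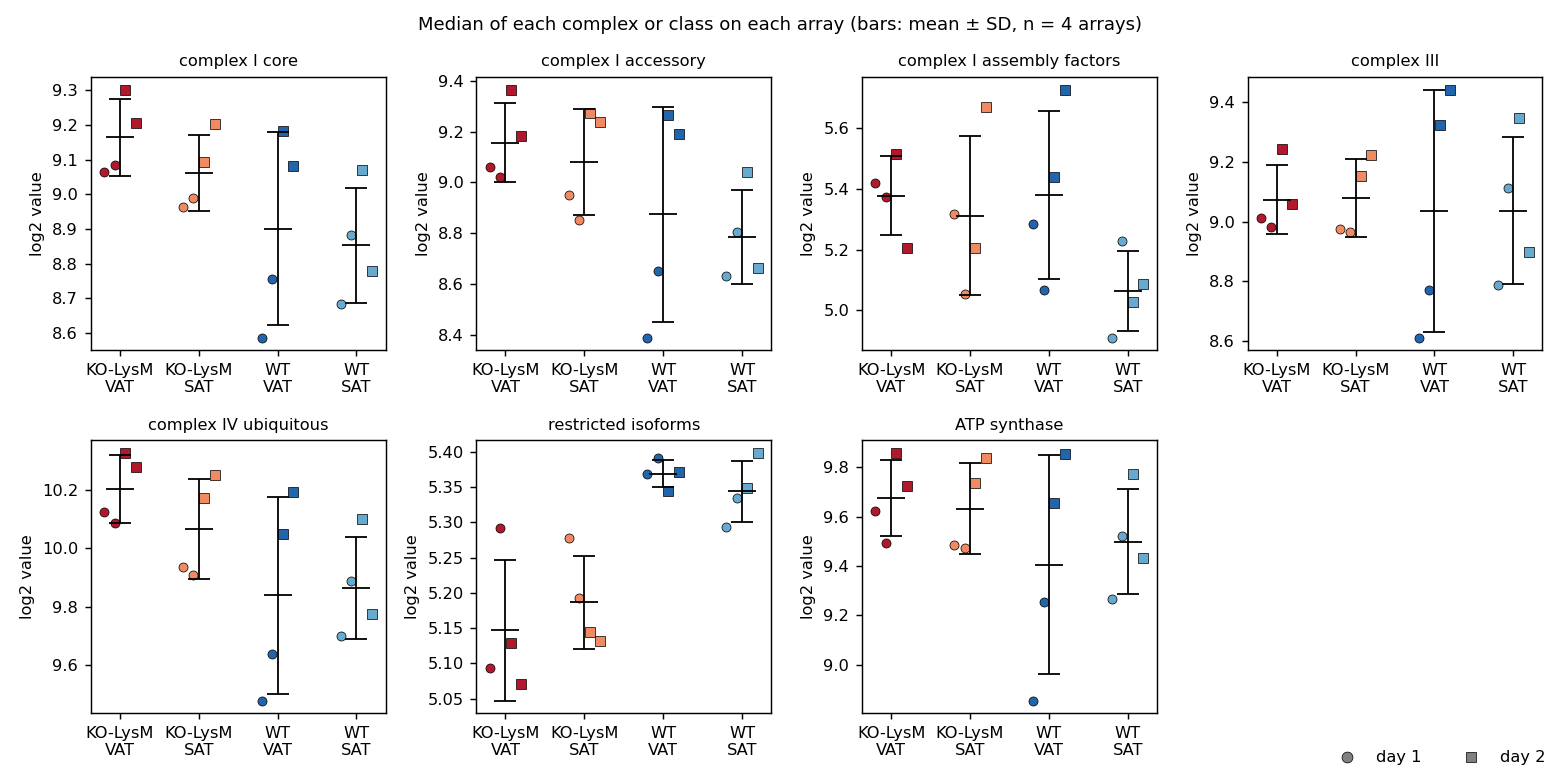
Median log2 level of the members of each role (7 panels) on each array, by group, with the group mean and SD (n = 4), circles for day 1 and squares for day 2. As deposited, the means of both KO-LysM groups lie above those of both WT groups in 5 roles, a direction that turns under at least 1 way of handling array spread in each. The exceptions are the restricted isoforms and the assembly factors, at 5.38 in KO-LysM VAT and 5.31 in KO-LysM SAT, against 5.38 in WT VAT and 5.06 in WT SAT.

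Among the 6 core subunits of complex I, the catalytic part that holds the flavin and iron-sulfur clusters, 3 were called higher over both depots as deposited and none lower. Their median difference was 0.20 as deposited but -0.056 after quantile normalization, -0.13 after scaling and -0.069 with the covariate. Ndufs1, the largest iron-sulfur subunit of the NADH-oxidising arm, measured 7.10, 6.96, 7.30 and 7.02 on the KO-LysM VAT arrays, against 6.55, 6.55, 6.80 and 6.84 on the WT VAT arrays. Every KO-LysM VAT array lay above every WT VAT array. The difference was 0.41 ± 0.09 (SE; limma adjusted p = 0.0112), with 0.48 on day 1 and 0.34 on day 2. It was 0.23 after quantile normalization (adjusted p = 0.0479), 0.32 after scaling (adjusted p = 0.0138) and 0.27 with the covariate (adjusted p = 0.0673). With the KO-LysM depots exchanged it was 0.26 (adjusted p = 0.0845). In SAT, Ndufs1 measured 6.79, 6.84, 6.99 and 7.17 on KO-LysM arrays and 6.89, 6.80, 6.75 and 6.73 on WT arrays, which overlap.

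Ndufs7, which carries the last iron-sulfur cluster before ubiquinone, ran the other way in SAT. It measured 10.21, 10.04, 10.18 and 10.38 on KO-LysM SAT, against 10.12, 10.44, 10.82 and 10.41 on WT SAT. As deposited the groups overlapped, with a difference of -0.24. The difference was -0.43 after quantile normalization (adjusted p = 0.00238), -0.88 after scaling (adjusted p = 0.000108) and -0.55 with the covariate (adjusted p = 0.0203).

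The 26 accessory subunits surround this core and stabilise it. Of these 11 were called higher over both depots and none lower as deposited, with a median of 0.26. The median was 0.010 after quantile normalization, -0.10 after scaling and -0.17 with the covariate. Ndufc2, a small membrane subunit, measured 8.23, 8.15, 8.56 and 8.65 on KO-LysM SAT, against 7.48, 7.81, 7.64 and 7.36 on WT SAT. These groups did not overlap, and the difference was 0.83 ± 0.20 (limma adjusted p = 0.00853). It was 0.48 after quantile normalization and 0.51 after scaling, both called, and -0.0089 with the covariate.

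Ndufa5, a subunit of the ubiquinone-reducing part, was called in both depots as deposited. It measured 10.91, 10.93, 11.09 and 10.98 on KO-LysM VAT, against 10.11, 10.56, 10.74 and 10.82 on WT VAT. In SAT it measured 10.76, 10.80, 10.89 and 10.9996 on KO-LysM arrays, against 10.26, 10.48, 10.68 and 10.20 on WT arrays. The genotypes did not overlap in either depot, with differences of 0.42 ± 0.12 in VAT (limma adjusted p = 0.0315) and 0.46 ± 0.12 in SAT (adjusted p = 0.0116). After scaling these were 0.0037 in VAT and -0.21 in SAT, both uncalled.

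Ndufb11, encoded on the X chromosome and needed for assembly of the membrane arm, measured 9.95, 9.96, 10.23 and 10.22 on KO-LysM VAT, against 9.09, 9.46, 9.68 and 10.13 on WT VAT. The highest WT VAT array lay inside the KO-LysM range. Its difference was 0.50 ± 0.11 in VAT (limma adjusted p = 0.0107) and 0.37 ± 0.11 in SAT (adjusted p = 0.0223), and after scaling 0.17 in VAT and -0.19 in SAT. Ndufab1, which doubles as the mitochondrial acyl carrier protein, was called only in SAT of the single depots, at 0.67 ± 0.22 (adjusted p = 0.0298), and stood at -0.16 there with the covariate.

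The 7 assembly factors build complex I without staying in it. Over both depots 3 were called higher and none lower as deposited, and the median of 0.20 was 0.22 after quantile normalization and 0.25 after scaling but -0.039 with the covariate. Ndufaf4, an early assembly factor, had the largest difference of all members in SAT. It measured 7.01, 6.75, 7.14 and 7.42 on KO-LysM SAT, against 5.88, 6.12, 6.35 and 5.48 on WT SAT. In VAT it measured 7.29, 7.03, 7.54 and 7.39 on KO-LysM arrays, against 5.73, 6.32, 7.24 and 7.13 on WT arrays. The SAT groups did not overlap, whereas the day 2 WT VAT arrays lay within the KO-LysM VAT range.

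The Ndufaf4 difference in SAT was 1.12 ± 0.23, or 2.18-fold (limma adjusted p = 0.00408), with 0.88 on day 1 and 1.37 on day 2. It was 0.95 after quantile normalization (adjusted p = 0.00783), 1.01 after scaling (adjusted p = 0.00459) and 0.16 with the covariate (adjusted p = 0.553). In VAT it was 0.71 ± 0.23 and uncalled (adjusted p = 0.0524).

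Ndufaf3, the partner of Ndufaf4 in early assembly, differed in the other direction in VAT. It measured 4.76, 4.40, 4.94 and 4.90 on KO-LysM VAT, against 5.18, 5.00, 5.10 and 5.73 on WT VAT. The groups did not overlap, and all of these values lay near background. The difference was -0.50 ± 0.13 (limma adjusted p = 0.0224), with -0.51 on day 1 and -0.49 on day 2. Since the KO-LysM VAT mean lay below background, WT VAT was at least 1.32-fold higher. The call held in all 3 alternatives for spread, at -0.42, -0.43 and -0.61. It was lost with the KO-LysM depots exchanged (-0.17, adjusted p = 0.359) and without KO-LysM VAT pool 2 or WT VAT pool 1.

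Of the 7 genes of complex III 3 were called higher over both depots as deposited and none lower, and the median of 0.25 was 0.065 after quantile normalization but -0.24 after scaling and -0.23 with the covariate. Uqcrb, the small subunit near the ubiquinone site, measured 7.72, 7.71, 8.15 and 8.14 on KO-LysM SAT, against 6.89, 6.90, 7.03 and 7.01 on WT SAT. In VAT it measured 7.84, 7.82, 8.24 and 8.07 on KO-LysM arrays, against 6.84, 7.47, 8.11 and 7.97 on WT arrays. Every KO-LysM SAT array lay above every WT SAT array, and the VAT groups overlapped through the day 2 WT arrays.

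The Uqcrb difference in SAT was 0.97 ± 0.15, or 1.96-fold (limma adjusted p = 0.000617), with 0.82 on day 1 and 1.12 on day 2. It was 0.65 after quantile normalization (adjusted p = 0.000343), 0.73 after scaling (adjusted p = 0.00061) and 0.48 with the covariate (adjusted p = 0.0443). With the KO-LysM depots exchanged it was 1.04 (adjusted p = 0.00029). In VAT the difference was 0.40 ± 0.15 and uncalled (adjusted p = 0.0721). The KO-LysM effect in VAT minus that in SAT was -0.57 ± 0.21 for Uqcrb and missed the threshold (adjusted p = 0.181).

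Uqcrfs1 encodes the Rieske iron-sulfur protein, which carries electrons from ubiquinol towards cytochrome c. It measured 8.28, 8.01, 8.54 and 8.37 on KO-LysM VAT, against 6.89, 7.43, 8.03 and 7.96 on WT VAT. In SAT it measured 7.81, 7.89, 8.23 and 8.13 on KO-LysM arrays, against 7.53, 7.63, 7.80 and 7.36 on WT arrays. The SAT groups were apart by a narrow gap, and in VAT 1 WT array lay inside the KO-LysM range.

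The Uqcrfs1 difference in VAT was 0.73 ± 0.16, or 1.65-fold (limma adjusted p = 0.00993), with 0.99 on day 1 and 0.47 on day 2. It was 0.50 after quantile normalization (adjusted p = 0.00212), 0.57 after scaling (adjusted p = 0.007) and 0.35 with the covariate (adjusted p = 0.0243). The call was lost with the KO-LysM depots exchanged (0.44, adjusted p = 0.0891) and without WT VAT pools 1 and 2 (0.42, adjusted p = 0.109). In SAT it was 0.43 ± 0.16 (adjusted p = 0.0477) and -0.19 with the covariate, and that call was lost in 12 of the 16 fits that leave out 1 array.

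Uqcrc1, a core protein of complex III, differed little as deposited. It measured 9.24, 8.97, 9.19 and 9.22 on KO-LysM SAT and 9.20, 9.27, 9.35 and 9.01 on WT SAT, which overlap. The difference was -0.053 as deposited, but -0.32 after quantile normalization (adjusted p = 0.00537), -0.54 after scaling (adjusted p = 0.000102) and -0.55 with the covariate (adjusted p = 0.0029).

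**Figure D4:**
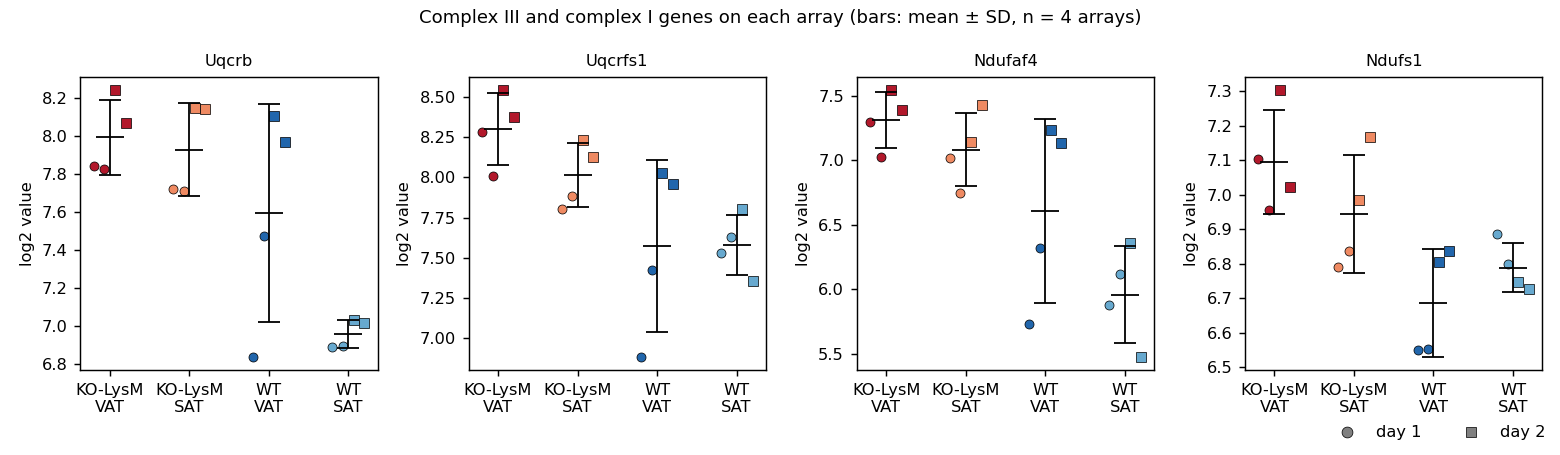
Log2 level of Uqcrb, Uqcrfs1, Ndufaf4 and Ndufs1 on each array, by group, with the group mean and SD (n = 4), circles for day 1 and squares for day 2. Uqcrb lies at 7.71 or above on every KO-LysM SAT array and at 7.03 or below on every WT SAT array, and Uqcrb in SAT and Uqcrfs1 in VAT kept their direction in all 3 alternatives for spread.

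The 11 broadly expressed genes of complex IV were all positive over both depots as deposited, with 5 called higher and none lower. Their median of 0.16 was 0.0066 after quantile normalization, -0.31 after scaling and -0.063 with the covariate. Cox5a, a subunit on the matrix side, measured 9.87, 9.88, 10.33 and 10.20 on KO-LysM VAT, against 9.24, 9.54, 9.97 and 10.15 on WT VAT. The day 2 WT arrays lay inside the KO-LysM range. The difference was 0.34 ± 0.10 in VAT (limma adjusted p = 0.0316) and 0.30 ± 0.10 in SAT (adjusted p = 0.03), but 0.011 in VAT and -0.27 in SAT after scaling. Cox4i1, the regulatory subunit that binds ATP, was uncalled in both depots, with 9.80, 9.68, 9.95 and 9.94 on KO-LysM SAT and 9.53, 9.80, 10.01 and 9.77 on WT SAT.

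All 8 restricted isoforms were lower over both depots as deposited, 5 of them called, with 29.2% of all genes called lower. Their median was -0.33 as deposited, -0.25 after quantile normalization, -0.24 after scaling and -0.10 with the covariate. The called isoforms were Cox6a2, Cox7a1 and Cox8b, found in striated muscle, and Cox6b2 and Cox8c, found in testis. None of the 5 stayed called over both depots with the covariate, where Cox8c stood at 0.042. Ndufa4l2 and Cox4i2, isoforms known to be induced at low oxygen, were uncalled in both depots.

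Cox8b measured 5.92, 5.77, 5.93 and 6.21 on KO-LysM SAT, against 7.12, 6.92, 7.50 and 6.56 on WT SAT. In VAT it measured 6.04, 5.94, 6.27 and 6.41 on KO-LysM arrays and 6.28, 6.32, 5.85 and 5.94 on WT arrays. The 4 WT SAT arrays lay above all other 12 arrays. In SAT the difference was -1.07 ± 0.18, so that WT SAT was 2.10-fold higher (limma adjusted p = 0.0012), with -1.18 on day 1 and -0.96 on day 2. The call held in all 3 alternatives for spread, at -1.27, -1.20 and -0.997, and with the KO-LysM depots exchanged, at -0.86 (adjusted p = 0.00301). In VAT the difference was 0.067 ± 0.18 (adjusted p = 0.798).

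Cox7a1 measured 4.26, 4.22, 4.68 and 4.28 on KO-LysM SAT, against 4.72, 5.15, 5.38 and 4.76 on WT SAT. In VAT it measured 4.26, 4.57, 4.28 and 4.29 on KO-LysM arrays and 4.41, 4.43, 4.31 and 4.43 on WT arrays. WT SAT was again the highest group on all 4 arrays. The SAT difference was -0.65 ± 0.14 (limma adjusted p = 0.00512), with -0.70 on day 1 and -0.60 on day 2. Because the mean of KO-LysM SAT lay below background, WT SAT was at least 1.17-fold higher. The call held in all 3 alternatives for spread, at -0.54, -0.53 and -0.71, and was lost on each day taken alone.

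Cox6a2 measured 6.44, 6.55, 6.19 and 6.27 on KO-LysM SAT, against 7.17, 7.02, 7.11 and 7.20 on WT SAT. In VAT it measured 6.42, 6.60, 6.13 and 6.41 on KO-LysM arrays, against 7.44, 7.11, 6.35 and 6.45 on WT arrays. The WT VAT arrays of day 1 were as high as WT SAT and those of day 2 as low as KO-LysM VAT. The SAT difference was -0.76 ± 0.15 (limma adjusted p = 0.00346), -1.01 after quantile normalization and -0.92 after scaling, but -0.16 with the covariate (adjusted p = 0.434).

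The skeletal muscle marker sum, like Cox8b and Cox7a1, was highest on WT SAT. That sum was 2663 to 4873 on WT SAT and at most 1314 on the arrays of the other groups. The fast-muscle troponin gene Tnnc2 had the largest fall of all genes in SAT, KO-LysM minus WT, at -4.44. Between the VAT groups the sum and these isoforms did not move together. The sum was 859 to 1314 on KO-LysM VAT, against 538 to 676 on WT VAT. Mean Cox8b was 6.17 and 6.10 in these groups. Mean Cox7a1 was 4.35 and 4.39, below background in each. Without the 2 arrays of the highest muscle marker sum, WT SAT pools 1 and 3, the SAT difference was -0.79 for Cox8b (adjusted p = 0.0176) and -0.60 for Cox7a1 (adjusted p = 0.0213). The WT SAT arrays left in, pools 2 and 4, still had muscle sums of 3209 and 2663, against 505 to 573 on KO-LysM SAT. That setting therefore does not remove the muscle difference. Of 5 brown adipocyte markers 3 were above background in every group, and Cidea and Elovl3 in none. These 3 did not move together. On KO-LysM SAT, Ucp1 (4.83 to 4.97, against 5.20 to 5.69) and Kcnk3 (5.49 to 5.81, against 5.89 to 6.58) were lower than on WT SAT. Dio2 was higher there (5.41 to 6.29, against 4.69 to 4.90). T cell markers, like those of muscle, summed higher on WT SAT, at 515 to 780. They summed to 269 to 413 on KO-LysM VAT, 196 to 262 on KO-LysM SAT and 254 to 322 on WT VAT. The part of other cells' RNA in these isoform differences was not tested.

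**Figure D5:**
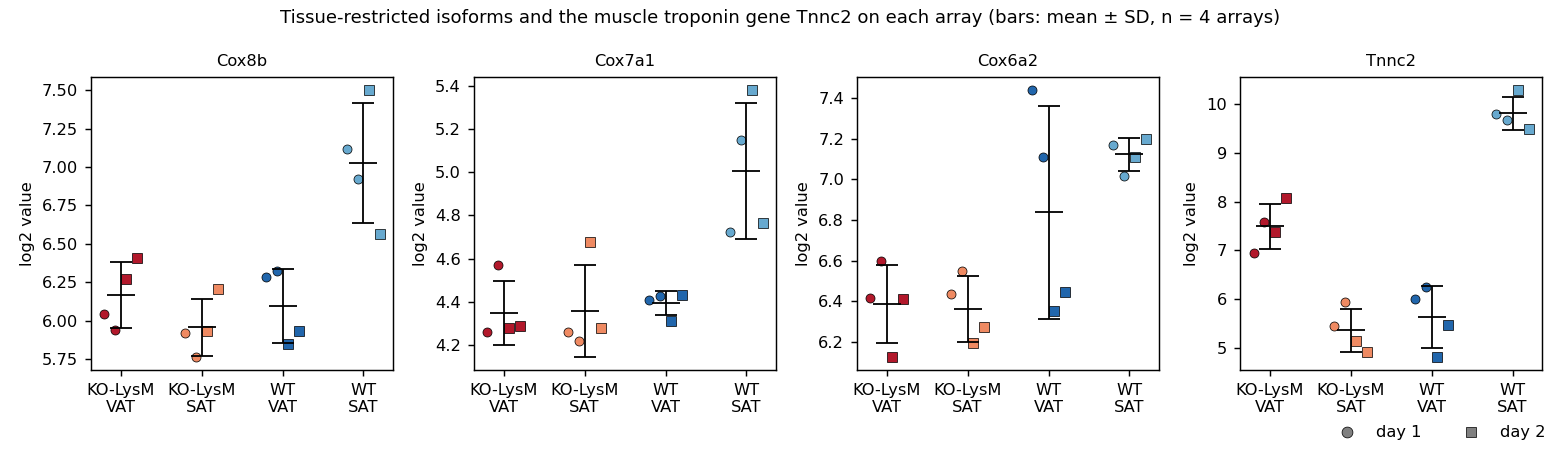
Log2 level of Cox8b, Cox7a1, Cox6a2 and the skeletal muscle gene Tnnc2 on each array, by group, with the group mean and SD (n = 4), circles for day 1 and squares for day 2. Cox8b and Cox7a1 stand highest on the 4 WT SAT arrays, where Tnnc2 is also highest, and Cox6a2 is as high on the day 1 WT VAT arrays, at 7.44 and 7.11. Cox8b and Cox7a1 were lower in KO-LysM SAT than in WT SAT as deposited and in all 3 alternatives for spread.

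Of the 17 ATP synthase genes 4 were called higher over both depots and none lower, with a median of 0.12 as deposited, -0.10 after quantile normalization, -0.26 after scaling and -0.25 with the covariate. In SAT, Atp5j2, the f subunit of the membrane sector, stood at 0.35 ± 0.13 (limma adjusted p = 0.0467), a call that was lost in 13 of the 16 fits that leave out 1 array and in 9 of 15 other settings. Atp5md, the small subunit that helps synthase dimers form, was called at 0.30 ± 0.10 (adjusted p = 0.0322). After scaling Atp5j2 stood at -0.25 and Atp5md at -0.34.

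Atp5b, the catalytic beta subunit, measured 9.74, 9.47, 9.81 and 9.84 on KO-LysM SAT and 9.55, 9.98, 9.89 and 9.45 on WT SAT. As deposited these ranges overlapped fully, with a difference of -0.0044 ± 0.16 (adjusted p = 0.984). The difference was -0.25 after quantile normalization (adjusted p = 0.0313), -0.56 after scaling (adjusted p = 0.00052) and -0.60 with the covariate (adjusted p = 0.00692). Atp5d, the delta subunit of the central stalk, stood at -0.20 as deposited and at -0.37, -0.84 and -0.55 in the 3 alternatives, each called.

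The second question was whether the depots differed. Within KO-LysM, VAT minus SAT, limma called no member, with 4.32% of all genes called (1.92% higher, 2.39% lower). An unadjusted p below 0.05 was found for 2 of the 82 members and for 2254 of all 17097 genes. Other settings called up to 3, as with the covariate, where 11.5% of all genes were called. Within WT, VAT minus SAT, 1 member was called higher and 2 lower, with 2.84% of all genes called (1.52% higher, 1.32% lower). Uqcrb was higher in WT VAT by 0.64 ± 0.15 (adjusted p = 0.0288), with 0.26 on day 1 and 1.02 on day 2. Cox8b was lower by 0.93 ± 0.18 (difference -0.93, adjusted p = 0.0119) and Cox7a1 by 0.61 ± 0.14 (difference -0.61, adjusted p = 0.031). The direction and call of all 3 held in the alternatives for spread. Without the 2 arrays of the highest muscle marker sum none of the 3 was called, at 0.64 for Uqcrb, -0.64 for Cox8b and -0.57 for Cox7a1.

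The members' median, VAT minus SAT in WT, was 0.039, with -0.22 on day 1 and 0.26 on day 2, so the days pointed in opposite directions. The KO-LysM effect in VAT minus that in SAT had a member median of 0.033, with 0.31 on day 1 and -0.26 on day 2. Cox8b was the 1 member called for this difference of effects, with 4.22% of all genes called (2.1% higher, 2.12% lower). Its value was 1.14 ± 0.25 (limma adjusted p = 0.0172), with 0.87 on day 1 and 1.41 on day 2, and it held in all 3 alternatives for spread. It was 0.72 with the KO-LysM depots exchanged (adjusted p = 0.175) and 0.85 without the 2 arrays of the highest muscle marker sum (adjusted p = 0.0961).

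Other mitochondrial genes were taken from listed pathways and compared over both depots, where 51.7% of all genes were called. Of 14 measured genes of the tricarboxylic acid cycle and pyruvate entry, 8 were called higher and 1 lower, with a median of 0.29 as deposited, 0.13 after quantile normalization, 0.042 after scaling and -0.031 with the covariate. Of 73 mitochondrial ribosomal protein genes, 34 were called higher and 3 lower, with a median of 0.26 as deposited and -0.0014, 0.056 and -0.17 in the 3 alternatives. Of 8 genes of complex II and cytochrome c, 3 were called higher, with medians of 0.22 as deposited and 0.015, -0.016 and -0.21 in the alternatives.

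Against the same 51.7% of all genes, 12 of 30 further assembly factors were called higher and 1 lower, with medians of 0.17 as deposited and 0.051, 0.055 and -0.13 in the alternatives. Of 7 carriers and porins, 4 were called higher and none lower, with medians of 0.19 as deposited and 0.042, -0.27 and -0.053 in the alternatives. Of 12 regulators of mitochondrial biogenesis, 4 were called higher and 1 lower as deposited. The 1 called lower was Nrf1, at -0.16, a factor whose letters were searched in the promoters. The regulators' median was positive in all 4 settings, at 0.17 as deposited and 0.10, 0.12 and 0.045 in the alternatives.

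Among the genes named by the rule from these lists, 2 were called in all 4 settings over both depots. Yy1, another factor whose letters were searched in the promoters, was higher in KO-LysM by 0.65 ± 0.09 (limma adjusted p = 0.000204). It was higher by 0.37, 0.45 and 0.34 in the alternatives, the last at an adjusted p of 0.0499. Mrpl44, a protein of the large mitochondrial ribosomal subunit, was higher by 1.05 ± 0.13 (adjusted p = 0.000116), and by 0.89, 0.94 and 0.57 in the alternatives. Gabpb1, the partner of GABPA, was higher by 0.62 ± 0.10 (adjusted p = 0.000697), but stood at 0.20 with the covariate (adjusted p = 0.282). Sdhd, a membrane anchor of complex II, was higher by 0.44 ± 0.07 (adjusted p = 0.000619), but stood at 0.26 with the covariate (adjusted p = 0.138).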

How the data were processed

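The deposited values are log2 expression per probe set from 16 mouse arrays of adipose tissue macrophages. The authors made them with RMA (affy package), per the submitters' processing notes, whose versions are not given in the sources used here. RMA sets the arrays to a common distribution of probe intensities, yet the interquartile range of the deposited values still differed between arrays. All values were used as deposited, on probe sets annotated to 1 gene (28898 of 45141), with the brightest probe set taken for each of 17097 genes. A linear model of the 4 groups plus day over all 16 arrays was fitted and moderated by empirical Bayes (limma 3.58.1, R 4.3.3, two-sided), and p-values were adjusted by Benjamini-Hochberg over all genes at 0.05. The fit was tested on simulated data with independent noise for each gene and array. Those data held no day effect, no difference in array spread and no RNA of other cells, so the test does not cover these features. Arrays carry no counts, so their number limits the precision.

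Alternatives were quantile normalization, scaling to 1 spread, the spread as a covariate, no day term, each day alone, the compared groups alone, array weights, a trended robust fit, the mean of all probe sets, removal of the lowest 40% of probe sets, exchanged KO-LysM depots, a replicate block and leaving out arrays. Of the members 39 had several probe sets and 13 were read on probe sets that can cross-hybridise. The other probe sets pointed the opposite way for called members over both depots only for Ndufa10, Ndufb7 and Ndufb8. The members and lists were chosen with earlier results of these data known. Members named with values are those called in any of 6 comparisons, the 5 largest rises and falls in each, restricted isoforms and their partners, and the core subunits. Promoter windows come from RefSeq (GRCm38.p6), with 67 of 82 members matched by symbol.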

Additional observations from a re-analysis of the deposited data

Results flagged for a closer look

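Among 248 sets of 4 arrays tested for 1 array far from the others, 4 were picked out, and chance alone picks out about 1 set in 20. Cox7a1 stood at 4.57 on KO-LysM VAT pool 2, against 4.26 to 4.29 on the other KO-LysM VAT arrays. Cox7a1 stood at 4.68 on KO-LysM SAT pool 3, against 4.22 to 4.28 on the other KO-LysM SAT arrays. Both values lie below background. Cox7b2 stood at 3.57 on KO-LysM SAT pool 1, against 3.47 to 3.48 on the others, also below background. Ndufa4l2, known to be induced at low oxygen, stood at 5.37 on KO-LysM SAT pool 1, against 5.07 to 5.08 on the other KO-LysM SAT arrays. The KO-LysM effect on Cox8b differed between the depots as labelled, by 1.14 in VAT minus SAT, in a test of the difference itself (limma adjusted p = 0.0172). It was 0.72 with the KO-LysM depots exchanged (adjusted p = 0.175).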

How the results depend on the processing

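The number of arrays and the spread of the WT VAT group limit the precision, and members near background have no usable fold. Normalization, handling of array spread, the day term and the WT VAT arrays of day 1 moved the number of called members by more than 1.5 times. The percentages are the share of all genes called under the same setting. In SAT, KO-LysM minus WT, 18 members were called (36.7%). The count was 8 without the day term (20.8%), 1 on day 1 alone (3.4%), 29 with only the compared groups fitted (43.2%), 44 after scaling (33.6%), 32 with array weights (49.4%), 29 with the KO-LysM depots exchanged (39.3%), 35 without WT VAT pools 1 and 2 (50.5%), and 10 without the 2 arrays of the highest muscle level (20%). In VAT, where 10 were called (15.9%), it was 1 without the day term (5.77%), 33 on day 1 alone (31.4%), 0 on day 2 alone (1.94%), 2 with the compared groups alone (7.24%), 1 with depots exchanged (6.89%) and 0 without WT VAT pools 1 and 2 (5.39%). Over both depots, where 34 were called (51.7%), it was 21 without the day term (39.8%), 11 on day 2 alone (25%), 19 with the covariate (7.91%) and 18 without WT VAT pools 1 and 2 (30.6%). For VAT minus SAT in WT, where 3 were called (2.84%), it was 24 on day 2 alone (24.7%), 0 with the compared groups alone (0.351%), 5 after quantile normalization (6.71%), 10 after scaling (6.47%), 11 with the covariate (8.79%), 26 without WT VAT pools 1 and 2 (25.4%) and 0 without the 2 arrays of the highest muscle level (0.842%). For VAT minus SAT in KO-LysM, where 0 were called (4.32%), it was 2 with the compared groups alone (12%), 3 with the covariate (11.5%) and 3 with array weights (12.9%). For the difference of effects between depots, where 1 was called (4.22%), it was 10 on day 2 alone (11.1%), 4 after quantile normalization (6.27%), 6 after scaling (5.59%), 8 with the covariate (9.91%), 2 with array weights (7.07%), 0 with depots exchanged (2.94%), 19 without WT VAT pools 1 and 2 (16.4%) and 0 without the 2 arrays of the highest muscle level (2.5%).

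The median member difference moved beyond the replicate spread to -0.27 in SAT, -0.097 in VAT and -0.18 over both depots after scaling. It moved to -0.22 in SAT and -0.15 over both depots with the covariate. For the difference of effects it was 0.31 on day 1 alone and -0.26 on day 2 alone. Leaving out 1 array at a time gave 9 to 30 called members in SAT, 3 to 22 in VAT, 1 to 10 for VAT minus SAT in WT and 1 to 2 for the difference of effects. The SAT count was 30 without WT VAT pool 1 (46.6%) and 9 without WT SAT pool 4 (18%) or KO-LysM SAT pool 1 (21.2%), the VAT count 22 without WT VAT pool 4 (23.4%) and 3 without KO-LysM VAT pool 2 (8.58%). The WT depot count was 10 without WT VAT pool 1 (10%) and 1 when WT SAT pool 3 (1.46%) or any WT VAT pool but the first (at most 2.47%) was left out. The count for the difference of effects was 2 without WT VAT pool 1 (7.66%) or pool 3 (4.14%). Of these 16 fits, the call was lost in 5 for Atp5md, Cox5a and Ndufab1 in SAT, 5 for Cox5a in VAT, 4 for Ndufa5 in VAT, and 2 each for Ndufb11 in SAT and Ndufaf3 in VAT. The 2 settings that leave out a pair of arrays were chosen after seeing the data.

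With the pool number as a replicate block in place of day, 15 members were called in SAT, 8 in VAT, 34 over both depots, 3 for VAT minus SAT in WT, 0 in KO-LysM and 1 for the difference of effects, so no count moved by more than 1.5 times. Deviations from group means correlated above 0.1 in 18 of 24 same-numbered pairs, and in 6 of 24 once the day means were removed, which gives both pools of a day the same value by construction. On day 1 that value was 0.34 between KO-LysM VAT and KO-LysM SAT and 0.38 between WT VAT and WT SAT. On day 2 it was -0.0072 and -0.023 for the same pairs of groups. Between KO-LysM VAT and WT SAT, which differ in genotype, it was 0.33 on day 2. The labels do not say whether same-numbered pools came from the same animals.

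Sign changes among called members came only with the 3 ways of handling array spread, and the cause was not tested. After quantile normalization, KO-LysM minus WT in SAT, the values were Ndufv2 -0.0041. After quantile normalization, KO-LysM minus WT over both depots, the values were Cox7c -0.015, Ndufs3 -0.063 and Ndufv2 -0.0081. After scaling, KO-LysM minus WT in SAT, the values were Atp5j2 -0.25, Atp5md -0.34, Cox5a -0.27, Ndufa5 -0.21, Ndufb11 -0.19, Ndufb3 -0.089 and Ndufv2 -0.27. After scaling, KO-LysM minus WT in VAT, the values were Atp5g3 -0.15. After scaling, KO-LysM minus WT over both depots, the values were Atp5c1 -0.14, Atp5g3 -0.33, Atp5j2 -0.20, Atp5md -0.21, Cox5a -0.13, Cox6b1 -0.29, Cox6c -0.22, Cox7a2 -0.38, Cox7c -0.055, Ndufa10 -0.086, Ndufa5 -0.10, Ndufb11 -0.0096, Ndufb7 -0.0050, Ndufb8 -0.11, Ndufs3 -0.058, Ndufv2 -0.19 and Uqcrc2 -0.13. With the spread covariate, KO-LysM minus WT in SAT, the values were Atp5j2 -0.092, Cox8c 0.21, Ndufab1 -0.16, Ndufb3 -0.025, Ndufc2 -0.0089 and Uqcrfs1 -0.19. With the spread covariate, KO-LysM minus WT over both depots, the values were Atp5c1 -0.089, Atp5j2 -0.076, Cox6c -0.0496, Cox7a2 -0.063, Cox7c -0.059, Cox8c 0.042, Ndufa1 -0.066, Ndufa10 -0.18, Ndufab1 -0.082, Ndufaf1 -0.027, Ndufaf2 -0.22, Ndufb5 -0.025, Ndufb7 -0.0704, Ndufb8 -0.048, Ndufc2 -0.061, Ndufs3 -0.033 and Uqcrc2 -0.076. In the other settings run no called member changed sign. The filter on dim probe sets removed Cox7b2.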
